A study of Mus musculus with 3 samples.

Results

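Toll-like receptors other than TLR4 were examined in resting mouse macrophages: the 9 receptor genes Tlr1, Tlr2, Tlr3, Tlr5, Tlr6, Tlr7, Tlr8, Tlr9 and Tlr13, together with Unc93b1, the gene of their trafficking protein. The 10 genes were chosen by name and matched by symbol and gene ID in the gene tables and in both transcript tables, where all 10 of 10 were found among 55536 genes. Polyadenylated RNA had been sequenced from bone-marrow-derived macrophages of the laboratory mouse strain C57BL/6J. All 3 libraries belonged to 1 group, labelled with lipid A, the part of bacterial lipopolysaccharide that TLR4 recognises, at 100 ng/ml for 0 minutes. The labels number the libraries as biological replicates 1, 2 and 3, give each its own biosample and give all of them the same donor record. Sex and age were not collected. Nothing in the labels tells whether each culture had its own animal, and p-values measure only the spread between these libraries, which may be technical. There was no second group, and the data therefore give resting levels and their spread, with no effect of lipid A. RNA came from whole cultures, in which fewer cells that express a gene and less RNA per cell cannot be told apart.

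Toll-like receptors are membrane proteins that bind molecules of microbes through an outer domain of leucine-rich repeats and signal through an inner TIR domain. TLR1, TLR2, TLR5 and TLR6 act at the cell surface, where TLR2 pairs with TLR1 or TLR6 to recognise bacterial lipoproteins and TLR5 recognises flagellin, the protein of bacterial flagella. TLR3, TLR7, TLR8, TLR9 and TLR13 act in endosomes, where they recognise nucleic acids and depend on Unc93b1, a membrane protein that carries them out of the endoplasmic reticulum.

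The libraries held 27946070 expected counts in replicate 1, 29779410 in replicate 2 and 53447437 in replicate 3, so replicate 3 gives the firmest counts. All 6 macrophage markers reached 1 TPM in every library, against 19.0% of all genes (TPM, a transcript's abundance per length, scaled to the same total in each library). Their sums, which follow the most abundant markers, were 7368, 8885 and 9038 TPM in replicates 1, 2 and 3. By the scaled counts defined below, 4 of the 6 were highest in replicate 2 and 2 in replicate 3, against 32.3% and 33.0% of tested genes. The libraries nevertheless stood apart from each other. All 13 genes of an interferon-stimulated list were highest in replicate 2, with sums of 1262, 4110 and 1298 TPM. Replicate 3 differed from the other libraries in how each gene's TPM was divided among its transcripts: it lay farthest from the others for 56.7% of 9278 genes with several transcripts in the RSEM-format table and for 58.1% in the kallisto-format table. The results below are therefore given by library, on the scale of TPM for levels and on the scale of counts scaled by the trimmed mean of M values (TMM, factors that even out library composition) for ratios between libraries.

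Among the 10 genes there are a pair of neighbours on chromosome 5 and another on the X chromosome (build mm10, annotation GENCODE M21). Tlr1 (chr5:64924679-64933563) and Tlr6 (chr5:64952031-64960097) are neighbours on the minus strand, 18467 bases apart. Tlr8 (chrX:167242696-167264329) and Tlr7 (chrX:167304929-167330558) are neighbours on the minus strand of the X chromosome, 40599 bases apart, and Tlr13 (chrX:106143204-106160493, plus strand) lies elsewhere on it. Tlr2 (chr3:83836272-83841767, minus strand), Tlr3 (chr8:45395665-45411080, minus strand), Tlr5 (chr1:182954788-182976044, plus strand), Tlr9 (chr9:106222598-106226883, plus strand) and Unc93b1 (chr19:3935186-3949340, plus strand) lie on chromosomes of their own. In the transcript with most expected counts, the whole coding sequence of Tlr1, Tlr2 and Tlr6 stands in 1 exon, that of Tlr5, Tlr7, Tlr8, Tlr9 and Tlr13 in 2 exons, that of Tlr3 in 4 and that of Unc93b1 in 11.

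Tlr1 and Tlr6 also share sequence, which matters for the division of reads between them. Of the 2753 words of 31 bases in Tlr1-201, 603 (21.9%) also occur in Tlr6. Tlr6-201 has 17.2% of its words in other genes, nearly all in Tlr1 and 21 words in Ctsq. The sequence common to Tlr1-201 and Tlr6-201 falls in 9 runs, the longest of 229 bases, all in the 3′ part of the coding sequence. The longest run is shown because reads inside it cannot be assigned to either gene by sequence; it lies at chr5:64925537-64925765 in Tlr1 and at chr5:64953828-64954056 in Tlr6, in the coding sequence of both, and is given on the minus strand, which both genes use.
Tlr1 and Tlr6 shared run: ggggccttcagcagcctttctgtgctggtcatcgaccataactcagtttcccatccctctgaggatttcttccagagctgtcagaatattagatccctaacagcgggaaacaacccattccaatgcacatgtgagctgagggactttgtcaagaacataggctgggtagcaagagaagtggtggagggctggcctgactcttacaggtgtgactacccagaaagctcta
Of Tlr2-201, Tlr5-201, Tlr7-201, Tlr8-201, Tlr9-201, Tlr13-201 and Unc93b1-203, the transcripts searched for the other genes, no word occurred in another gene. Tlr3-201 shared 1.99% of its words with the antisense gene Gm45542, which overlaps 381 bases of its exons and had 1, 0 and 0 counts; whether the counting used strand is not given in the sources used here.

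Promoter sequences from RefSeq (GRCm38.p6, the assembly of mm10) were matched by symbol for 8 of the 10 genes, all except Tlr7 and Unc93b1. Each window runs from 250 bases before to 50 bases after the annotated start. The windows of Tlr9 and Tlr2 are shown because these genes differed most between libraries in the direction of replicate 2, and that of Tlr13 because it had the lowest ratio there. Capitals mark matches to the motifs named below.
Tlr9 promoter, chr9:106222348-106222647, plus strand: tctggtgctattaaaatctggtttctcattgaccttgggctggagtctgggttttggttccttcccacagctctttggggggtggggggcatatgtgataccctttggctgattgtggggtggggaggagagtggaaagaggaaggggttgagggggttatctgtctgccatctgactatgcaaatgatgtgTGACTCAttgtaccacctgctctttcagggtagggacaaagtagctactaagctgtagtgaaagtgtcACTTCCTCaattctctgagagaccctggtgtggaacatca
Tlr2 promoter, chr3:83841559-83841858, minus strand: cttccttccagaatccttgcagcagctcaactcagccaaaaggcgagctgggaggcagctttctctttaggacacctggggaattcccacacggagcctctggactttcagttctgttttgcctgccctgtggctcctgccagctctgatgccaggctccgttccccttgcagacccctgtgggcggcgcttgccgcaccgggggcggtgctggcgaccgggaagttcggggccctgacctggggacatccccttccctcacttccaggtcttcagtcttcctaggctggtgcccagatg
Tlr13 promoter, chrX:106143025-106143324, plus strand: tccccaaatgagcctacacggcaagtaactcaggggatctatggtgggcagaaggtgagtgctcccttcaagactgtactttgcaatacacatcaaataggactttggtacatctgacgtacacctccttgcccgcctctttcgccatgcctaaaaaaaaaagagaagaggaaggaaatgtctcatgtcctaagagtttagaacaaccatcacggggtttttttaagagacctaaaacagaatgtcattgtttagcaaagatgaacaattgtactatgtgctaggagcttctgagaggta
The Tlr9 window holds the AP-1 motif TGANTCA 58 bases before the start and, on the other strand, the PU.1 core GAGGAAGT from base 11 after it. Both strands were searched. AP-1 occurs in 7.81% and the PU.1 core in 3.20% of 32851 windows. The Tlr2 and Tlr13 windows hold neither of these motifs, nor the NF-kB core GGANTTTCC, which 1.25% of windows hold, nor the core of the interferon-stimulated response element, GAAANNGAA, which 8.56% hold. Among all 10 windows of these genes (Tlr1 and Tlr6 have a pair each), the response element core was found in 2, of Tlr6 and Tlr8, the NF-kB core in 1, of Tlr3, and the PU.1 core also in 1 window of Tlr1. A match describes the letters in the window only. Other forms of these motifs were not searched, so a window without a match may still hold such a site.

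All 10 genes were detected at 1 TPM or more in every library, against 19.0% of all genes in the tables. Their median of mean TPM was 54.6, against 18.6 among the 10548 genes detected in every library. Mean levels ran in the order Unc93b1, Tlr13, Tlr7, Tlr8, Tlr1, Tlr2, Tlr6, Tlr9, Tlr3 and Tlr5. Between neighbours in that order the ranges over libraries stood apart in 3 places: between Unc93b1 and Tlr13, between Tlr8 and Tlr1, and between Tlr3 and Tlr5. Elsewhere neighbours overlapped, so that their order in the mean lies within the spread between libraries.

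**Figure D1:**
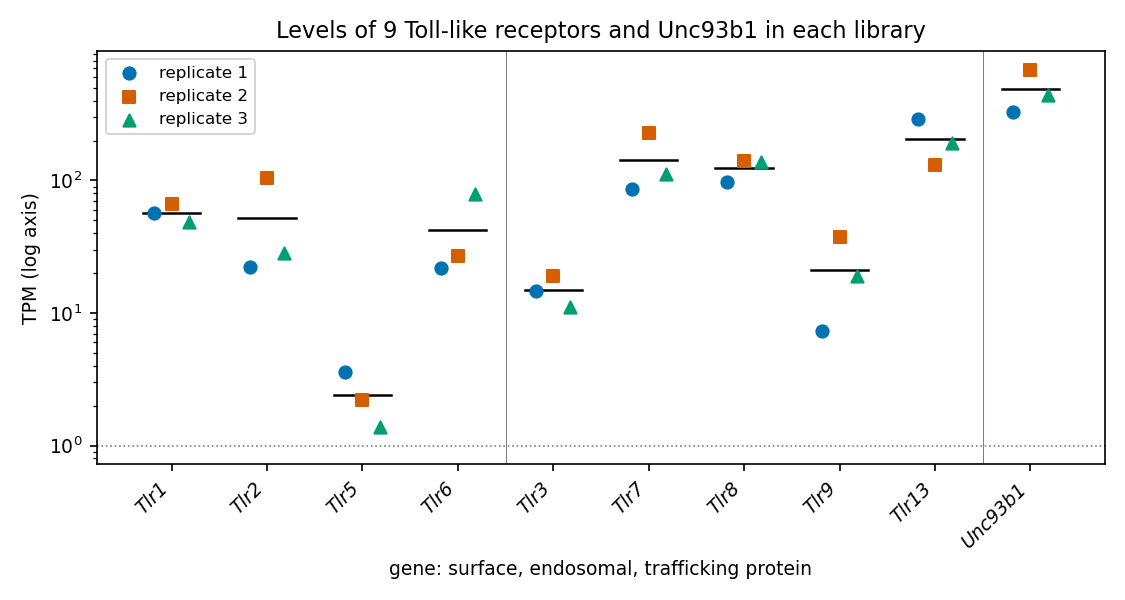
TPM (log axis) of each gene in replicate 1 (circles), replicate 2 (squares) and replicate 3 (triangles), with the mean as a bar, in the groups surface receptors, endosomal receptors and trafficking protein; the dotted line marks 1 TPM. Unc93b1 and Tlr13 stood at the top and Tlr5 at the bottom, at 1.38 to 3.61 TPM.

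Among the surface receptors, Tlr1 and Tlr2 had similar means and very different spreads. The values of Tlr1 and Tlr6 rest in part on the division of reads in their common sequence. Tlr1, the partner of TLR2 for triacylated lipoproteins, had 56.4, 66.6 and 48.8 TPM in replicates 1, 2 and 3, a mean of 57.3 ± 8.96 TPM (SD, n = 3). The 3 values lay close together. Tlr2, the receptor common to both lipoprotein pairs, had 105 TPM in replicate 2, against 22.4 TPM in replicate 1 and 28.1 TPM in replicate 3, a mean of 51.9 ± 46.2 TPM (SD, n = 3). Replicate 2 alone was high, and without it the mean of Tlr2 was 25.3 TPM. Tlr6, the partner of TLR2 for diacylated lipoproteins, had 22.0, 26.9 and 78.8 TPM, with replicate 3 alone high, a mean of 42.6 ± 31.5 TPM (SD, n = 3). Without replicate 3 its mean was 24.4 TPM. On the scale of TMM-scaled counts (CPM, counts over a common library total) the same gene had 23.4, 31.9 and 38.2 CPM, a 1.64-fold range against 3.58-fold in TPM. The excess in TPM sat in the short transcript Tlr6-202 described below. Tlr5, the flagellin receptor, was the lowest of the 10 genes, at 3.61, 2.20 and 1.38 TPM from 181, 120 and 156 expected counts, all far above the limit of 3 counts that a count of 0 allows. It was the only gene of the 10 under 5 TPM in every library.

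The balance of the lipoprotein pairs differed between libraries with Tlr2. The ratio of Tlr2 to the sum of its partners Tlr1 and Tlr6 was 1.12 in replicate 2, against 0.285 in replicate 1 and 0.220 in replicate 3, in TPM. Partner transcripts thus outnumbered Tlr2 in replicates 1 and 3. Counted over transcripts of at least 1000 bases, a limit chosen after the values were seen, the ratio was 1.41 in replicate 2, against 0.364 and 0.495 in replicates 1 and 3, so the order of replicates 1 and 3 turned and replicate 2 stayed the highest. The ratio of Tlr2 to Tlr1 alone was 0.397, 1.58 and 0.577 in replicates 1, 2 and 3.

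The endosomal receptors were led by Tlr13, which in mice recognises a sequence of bacterial ribosomal RNA. Tlr13 had 291, 131 and 191 TPM in replicates 1, 2 and 3, a mean of 205 ± 80.9 TPM (SD, n = 3), and ranked above the other 8 receptors in replicates 1 and 3. In replicate 2 it came after Tlr7 and Tlr8. Tlr7, a receptor of RNA rich in uridine and guanosine, had 229 TPM in replicate 2, against 86.5 TPM in replicate 1 and 113 TPM in replicate 3, a mean of 143 ± 75.6 TPM (SD, n = 3). Its X-linked neighbour Tlr8, an RNA receptor whose ligand range is less well defined in mice than in humans, had 97.3, 139 and 138 TPM, a mean of 125 ± 23.7 TPM (SD, n = 3). Replicates 2 and 3 lay close together for Tlr8, and replicate 1 was the lowest. The ratio of Tlr7 to Tlr8 in TPM was 1.64 in replicate 2, against 0.889 and 0.819 in replicates 1 and 3, so that the neighbouring genes changed places between libraries.

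Tlr9, the receptor of DNA with unmethylated CpG, was variable and lay below Tlr13, Tlr7 and Tlr8 in every library. Its mean exceeded that of 54.0% of the genes detected in every library. It had 37.3 TPM in replicate 2, against 7.26 TPM in replicate 1 and 19.0 TPM in replicate 3, a mean of 21.2 ± 15.2 TPM (SD, n = 3), from 2367 counts in replicate 2, against 431 and 2398 counts in the others. All 3 libraries were well separated, and without replicate 2 the mean of Tlr9 was 13.1 TPM. Tlr3, the receptor of duplex RNA, had 14.5, 19.1 and 11.1 TPM, a mean of 14.9 ± 4.01 TPM (SD, n = 3), and overlapped Tlr9 in range. The ratio of Tlr13 to Tlr9, both in TPM, was 40.1 in replicate 1, 3.51 in replicate 2 and 10.1 in replicate 3. It was the most uneven of the ratios computed between these receptors.

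Unc93b1 had the highest mean of the 10 genes, with 328, 686 and 444 TPM in replicates 1, 2 and 3 and a mean of 486 ± 183 TPM (SD, n = 3). It exceeded 97.6% of the genes detected in every library. Set against the summed TPM of the 5 endosomal receptors, Unc93b1 reached 0.659 in replicate 1, 1.24 in replicate 2 and 0.941 in replicate 3. Adding Tlr5, which in mice also uses Unc93b1, gave 0.655, 1.23 and 0.938. Transcripts of the carrier therefore exceeded those of the receptors it carries in replicate 2 only.

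Summed over the 9 receptors the level was 601, 756 and 629 TPM in replicates 1, 2 and 3 (662 ± 82.5 TPM, SD, n = 3). Endosomal receptors made up 82.6%, 73.4% and 75.0% of that sum. Within it Tlr13 took 48.4% in replicate 1, 17.3% in replicate 2 and 30.4% in replicate 3. Tlr7 took 30.2% in replicate 2, against 14.4% and 17.9% in replicates 1 and 3. Tlr2 took 13.9% in replicate 2, against 3.72% and 4.47%, and Tlr6 took 12.5% in replicate 3, against 3.66% and 3.55% in replicates 1 and 2. These shares are of 1 total, so a high share of 1 receptor lowers the others.

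**Figure D2:**
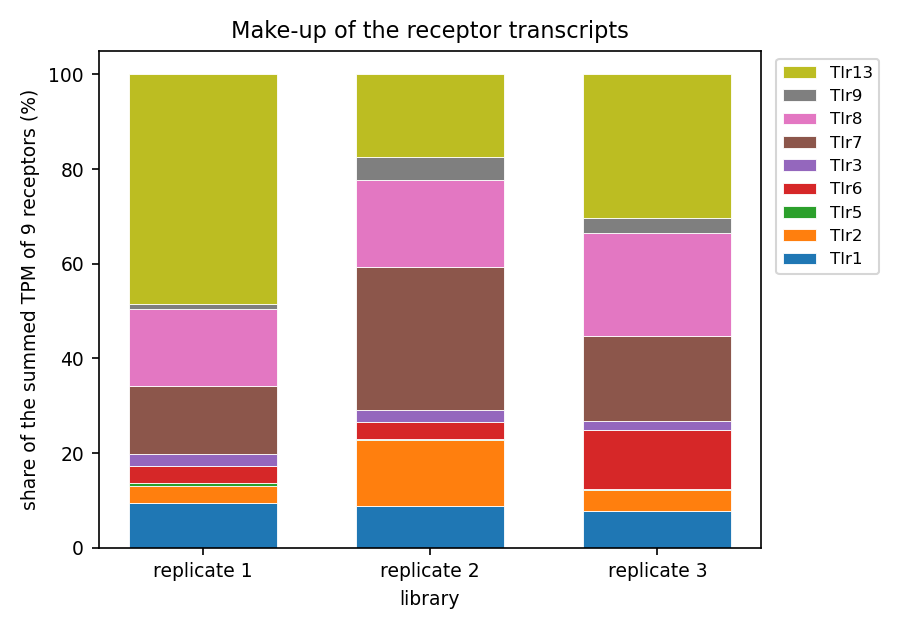
Share (%) of the summed TPM of the 9 receptors taken by each gene, stacked by library (replicates 1, 2 and 3). Tlr13 took 48.4% of replicate 1 and 17.3% of replicate 2, while Tlr7 and Tlr2 were broadest in replicate 2.

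On TMM-scaled counts 6 of the 10 genes were highest in replicate 2 (Tlr1, Tlr2, Tlr3, Tlr7, Tlr9 and Unc93b1), against 32.3% of the 11886 genes tested. Replicate 1 was highest for 2 genes, Tlr5 and Tlr13, against 34.7% of tested genes, and replicate 3 for 2, Tlr6 and Tlr8, against 33.0%. Replicate 1 was the lowest library for 8 of the 10, all but Tlr5 and Tlr13, against 34.5% of tested genes; this count was chosen after the values were seen. The median log2 ratio of the 10 genes to the other libraries' geometric mean was -0.60, 0.34 and 0.06 in replicates 1, 2 and 3, against 0.00, 0.00 and 0.01 over all tested genes.

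Over 2-fold higher in replicate 2 than in the geometric mean of the others were 2 of the 10 genes, against 7.48% of tested genes. They were Tlr2, with a log2 ratio of 1.89 from 183 CPM in replicate 2, against 39.4 and 61.9 CPM in replicates 1 and 3, and Tlr9, with a log2 ratio of 1.49 from 75.8 CPM, against 14.9 and 48.8 CPM. Tlr7 and Unc93b1 lay just under that threshold, at log2 ratios of 0.95 and 0.92. Tlr13 went the other way, at -1.03, from 312 CPM in replicate 2, against 707 and 575 CPM in replicates 1 and 3. Without replicate 1, only Tlr2 exceeded 2-fold, and the log2 ratio of Tlr9 was 0.64; without replicate 3, 4 of the genes did. Over 2-fold lower in replicate 1 than in the others were 3 genes, Tlr9, Tlr2 and Tlr7, with log2 ratios of -2.02, -1.43 and -1.03, against 7.67% of tested genes. Every ratio of a gene uses all libraries, so a high replicate 2 also lowers the ratio of replicate 1. The upward and downward ratios of Tlr2 and Tlr9 are therefore not separate results. Between replicates 1 and 3 alone, Tlr2 had 39.4 and 61.9 CPM and Tlr9 had 14.9 and 48.8 CPM.

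**Figure D3:**
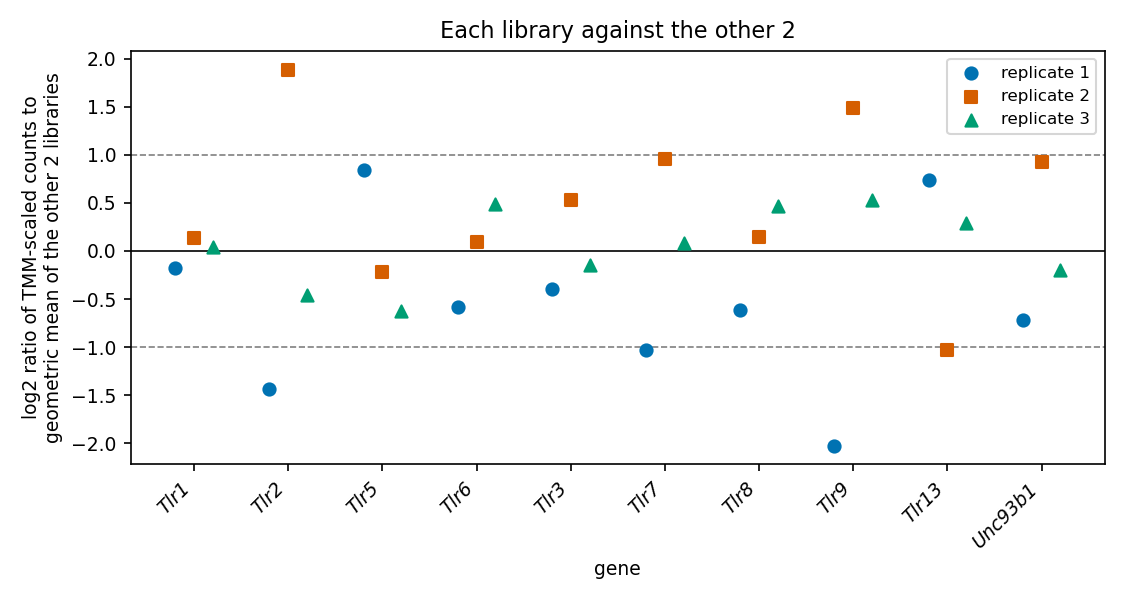
Log2 ratio of each library's TMM-scaled counts to those of the other 2 libraries (their geometric mean), for replicate 1 (circles), replicate 2 (squares) and replicate 3 (triangles); dashed lines mark 2-fold. Tlr2 and Tlr9 lie above the upper line in replicate 2, and Tlr13 lies at -1.03.

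These differences did not pass a test of spread. With only 3 libraries that test called no gene at all, so it cannot show whether these 10 genes varied unusually. Each gene's quasi-dispersion, its spread beyond counting error, was set against the prior that edgeR fitted over all genes of like abundance. At an adjusted p under 0.05 the edgeR test called 0 of the 10 genes and 0 of 11886 tested genes (0.00%), and an unadjusted p under 0.05 was found for 2 of the 10 and for 545 genes in all. DESeq2 marked 0 of the 10 and 9 genes in all as dispersion outliers. In the edgeR test Tlr2 had an unadjusted p of 0.0195 and Tlr9 of 0.0213, with an adjusted p of 0.970 for each. The SD of log2 scaled counts was 1.14 for Tlr2 and 1.21 for Tlr9, larger than for 94.1% and 95.2% of tested genes. At the other end, Tlr1 had an SD of 0.10, with only 5.22% of tested genes below it. The median SD over the 10 genes was 0.53, against 0.41 over all tested genes. The 13 interferon-stimulated genes were also highest in replicate 2, in 13 of 13 cases, and their part in these values was not tested.

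Of the 10 genes, 9 had the same leading transcript by mean share of the gene's TPM in the RSEM-format and the kallisto-format table. This count was not made over all genes, so it has no background. The exception was Tlr3, led by Tlr3-201 in the RSEM-format table (28.4%) and by Tlr3-205 in the other (47.5%). Both carry the same coding length of 2715 bases. Tlr2 and Tlr9 have 1 annotated transcript each, so their agreement was fixed in advance. Tlr13-201 took at least 98.7% of Tlr13 in every library and both tables. The values of Tlr2, Tlr9 and Tlr13 therefore do not rest on a division among transcripts.

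Tlr6 turned on a fragment. Tlr6-202, of 446 bases, took 87.4% of the gene's TPM in replicate 3, against 54.6% and 47.7% in replicates 1 and 2 in the RSEM-format table, and 86.3%, against 56.1% and 51.8%, in the kallisto-format table. Of its 446 bases, 396 lie within the first 485 bases of Tlr6-201, and 74 of its 416 words of 31 bases occur in no other transcript of Tlr6. By expected counts its share was far smaller, at 29.2% in replicate 3, against 6.34% and 4.89% in replicates 1 and 2. The full-length Tlr6-201 had 10.01, 14.1 and 9.91 TPM in replicates 1, 2 and 3, a mean of 11.3 ± 2.36 TPM (SD, n = 3). Counted by transcripts of at least 1000 bases, a limit chosen after the values were seen, the mean of Tlr6 thus stood below that of Tlr9 and next to that of Tlr3, at 11.5 ± 2.72 TPM (SD, n = 3). By library, Tlr6-201 was below Tlr9 in replicates 2 and 3 and above it in replicate 1, at 10.01 TPM, against 7.26 TPM for Tlr9.

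Unc93b1 had a smaller full-length share in the same library. The full-length Unc93b1-203, with a coding sequence of 1857 bases, took 36.9% of the gene's TPM in replicate 3, against 83.3% in each of replicates 1 and 2 in the RSEM-format table. In the kallisto-format table it took 42.0%, against 78.5% and 78.7%. The shorter Unc93b1-206, annotated with 786 bases and coding throughout, took 27.7% in replicate 3 in the RSEM-format table and was listed at 0 in replicates 1 and 2; in the kallisto-format table it took 36.9%, against 0.529% and 0.713%. Unc93b1-204 took 21.7% of replicate 3, against 0.784% and 1.25% of replicates 1 and 2, in the RSEM-format table. The annotation shows what these shorter transcripts have in common: both lack exon 9 of the 11 exons of Unc93b1-203, a coding exon of 274 bases at chr19:3944023-3944296, a length that is not a multiple of 3. Together they took 49.4% of the gene's TPM in replicate 3, against 0.784% and 1.25% in replicates 1 and 2 in the RSEM-format table, and 44.8%, against 0.651% and 1.55%, in the kallisto-format table. By expected counts the share was 39.6% in replicate 3, against 0.767% and 1.18%. The exon and the junction that replaces it are shown because 30 words of 31 bases, those across that junction, are in these 2 transcripts and in no other of the gene. The last 20 bases of exon 8 are in lower case and the first 20 bases of exon 10 in capitals (chr19:3943692-3947026, plus strand).
Unc93b1 exon 9: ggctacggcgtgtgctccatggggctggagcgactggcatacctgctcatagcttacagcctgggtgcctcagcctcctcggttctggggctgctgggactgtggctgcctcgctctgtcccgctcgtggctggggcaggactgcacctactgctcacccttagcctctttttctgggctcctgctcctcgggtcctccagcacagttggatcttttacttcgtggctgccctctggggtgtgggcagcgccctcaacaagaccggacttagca
Unc93b1 junction of exons 8 and 10: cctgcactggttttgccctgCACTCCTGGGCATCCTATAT
No 31-base word occurs in Unc93b1-203, Unc93b1-204 or Unc93b1-206 alone, so the split between Unc93b1-204 and Unc93b1-206 rests on the programs' estimates, while reads across the junction set both apart from Unc93b1-203. The reads themselves were not analysed here.

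The lipoprotein partner Tlr1 was led by Tlr1-201, which took 86.6% in replicate 3, against 54.6% and 64.9% in replicates 1 and 2 in the RSEM-format table. Its companion Tlr1-202, with the same coding length of 2385 bases and another 5′ end, took 9.59%, against 36.6% and 26.2%. In the kallisto-format table the noncoding Tlr1-203 also reached 16.9%, 18.9% and 8.09% in replicates 1, 2 and 3. Both tables therefore gave the same order of libraries for Tlr1-201.

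For Tlr8 and Tlr7 the tables disagreed in size and in the order of libraries. Tlr8-202 took 48.0%, 46.9% and 24.4% of Tlr8 in replicates 1, 2 and 3 in the RSEM-format table and 72.5%, 76.5% and 78.4% in the kallisto-format table. Tlr8-201, all of whose words occur in other transcripts of the gene, took 29.8%, 31.3% and 49.5% in the first and was listed at 0 in all libraries in the other. Both encode the same coding length of 3096 bases. Tlr8-203 took 11.4%, 15.5% and 23.2% in the RSEM-format table, and the noncoding Tlr8-204 reached 10.7% in replicate 1 of the kallisto-format table. Tlr7-201 took 81.0%, 73.7% and 79.8% of Tlr7 in the RSEM-format table but 56.6%, 49.4% and 42.8% in the kallisto-format table, where Tlr7-202, of equal coding length, took 24.0%, 28.3% and 47.4%. The mean TPM over libraries of the 10 genes was 1.15 to 1.36 times as high in the RSEM-format as in the kallisto-format tables; in replicate 3 alone, Tlr5, Tlr8 and Unc93b1 were lower in the RSEM-format table, Tlr8 at 138 TPM, against 143 TPM.

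The transcripts of Tlr3 changed places between libraries, and those of Tlr5 rested on few counts. Tlr3-201 took 29.1%, 49.6% and 6.46% in replicates 1, 2 and 3 in the RSEM-format table, while Tlr3-205 took 21.4%, 6.85% and 43.6% and the single-exon Tlr3-206 took 12.4%, 13.4% and 42.5%. The short Tlr3-208 took 23.3% and 12.0%, from 8.46 and 6.06 expected counts, in replicates 1 and 2 and was listed at 0 in replicate 3. Tlr3-209 reached 10.4% only in replicate 2 of the kallisto-format table. Tlr5-201 took 90.6%, 92.7% and 97.1% in the RSEM-format table, and in the kallisto-format table Tlr5-204 took 41.9% of replicate 3 and was at 0 in the others, while the noncoding Tlr5-203 reached 14.3% in replicate 1. Every base of Tlr5-204 lies in Tlr5-201.

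**Figure D4:**
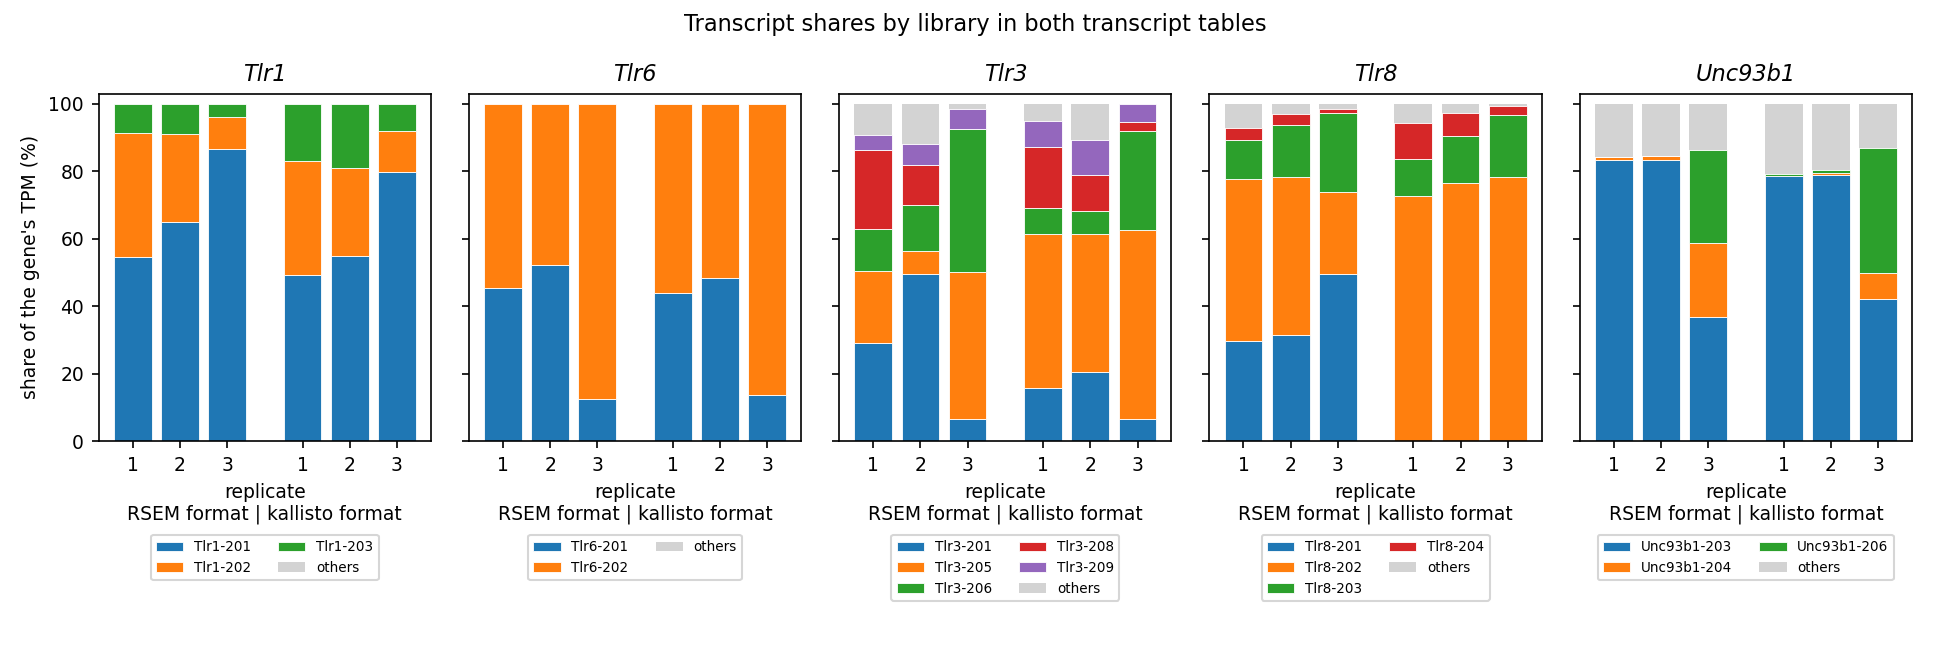
Share (%) of the gene's TPM taken by each transcript that reached 10% in any library or table, for replicates 1, 2 and 3 in the RSEM-format (left bars) and kallisto-format table (right bars); grey is the remainder. Replicate 3 differs from the other libraries for Tlr6, where Tlr6-202 took 87.4%, and for Unc93b1, where Unc93b1-203 took 36.9%.

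A shift was defined for each library as the summed difference, over transcripts and divided by 2, between its shares and the mean of the other libraries; the measure and its threshold of 25 percentage points were chosen after the values were seen. In replicate 3, 5 of the 8 genes with several transcripts exceeded it in the RSEM-format table, against 29.2% of 9278 genes, and 5 of 8 in the kallisto-format table, against 31.2%. The 5 were Tlr1, Tlr3, Tlr6, Tlr8 and Unc93b1 in the RSEM-format table; in the kallisto-format table Tlr5 stood in the place of Tlr8. Replicate 3 was the farthest library for 6 of the 8 in both tables, beside 56.7% and 58.1% of all genes. The largest shifts were 61.1 points for Tlr3 and 52.7 points for Unc93b1, both in replicate 3 of the RSEM-format table.

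Genes that carry, process and signal with these receptors were all expressed. Of 7 chaperone and trafficking genes, 7 were detected in every library, against 19.0% of all genes, and 3 were highest in replicate 2, near the 32.3% of all tested genes. Hsp90b1, which encodes the chaperone gp96 that folds most Toll-like receptors, averaged 578 ± 268 TPM. Slc15a4, an endolysosomal transporter needed for TLR7 and TLR9 responses, averaged 100.1 ± 106 TPM, with 222 TPM in replicate 3, against 30.8 and 47.6 TPM in replicates 1 and 2. On scaled counts Slc15a4 was highest in replicate 2 instead, at a log2 ratio of 1.10, against -0.64 and -0.46 for replicates 1 and 3. Lrrc59, a protein of the endoplasmic reticulum, averaged 95.8 ± 39.6 TPM, and the lowest member was Cnpy4, a relative of the receptor chaperone gene Cnpy3, at 13.8 ± 3.88 TPM (SD, n = 3 each).

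Endosomal proteases, which cleave the outer domains of these receptors, ran over a wide range of levels. All 5 were detected, against 19.0% of all genes. Ctsb averaged 10697 ± 4138 TPM, Ctss 3747 ± 560 TPM and Lgmn, asparagine endopeptidase, 1858 ± 322 TPM (SD, n = 3 each). Ctsk was the lowest, at 3.71 ± 0.262 TPM. Ctsb and Ctss were highest in replicate 2, and Lgmn and Ctsk in replicate 3. Replicate 1 was lowest for 4 of the 5, against 34.5% of tested genes. The exception was Ctsl, another cathepsin, with 2553 TPM in replicate 1, against 699 and 728 TPM in replicates 2 and 3, a log2 ratio of 1.58.

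The nucleases that trim the ligands of endosomal receptors were all detected, 5 of 5, against 19.0% of all genes. Pld3, an exonuclease of endolysosomes, averaged 1179 ± 301 TPM, and Rnaset2b, which with its near copy Rnaset2a encodes a lysosomal ribonuclease, averaged 274 ± 116 TPM. Pld4, an exonuclease related to Pld3, had 433 TPM in replicate 2, against 102 and 159 TPM in replicates 1 and 3. Rnaset2a was the lowest, at 63.3 ± 35.6 TPM (SD, n = 3 each); reads of the near copies may be divided uncertainly. The median log2 ratio of the 5 genes in replicate 1 was -0.85, below the median of the 10 receptor and carrier genes in that library (-0.60).

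The co-receptor genes moved apart. Cd36, a scavenger receptor that assists the TLR2 and TLR6 pair, had 108 TPM in replicate 2, against 1133 TPM in replicate 1 and 635 TPM in replicate 3, opposite to Tlr2. Cd14, which hands lipids to TLR2 and TLR4, had 182 TPM in replicate 2, against 134 and 57.5 TPM. Hmgb1, a nuclear protein that binds nucleic acids, averaged 192 ± 75.0 TPM (SD, n = 3).

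Of 9 signalling genes all were detected, against 19.0% of all genes. Of them, 4 were highest in replicate 2, near the 32.3% of all tested genes. The highest was Irf7, a transcription factor of interferon genes, with 290 TPM in replicate 2, against 148 and 81.2 TPM in replicates 1 and 3. Irf5, a factor of inflammatory genes, averaged 136 ± 23.5 TPM and Myd88, the adaptor of nearly all these receptors, averaged 53.9 ± 21.4 TPM. Tirap, the bridging adaptor, was the lowest at 7.89 ± 1.67 TPM (SD, n = 3 each). The adaptor of TLR3, Ticam1, had 15.2, 17.9 and 25 TPM and was highest in replicate 3.

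**Figure D5:**
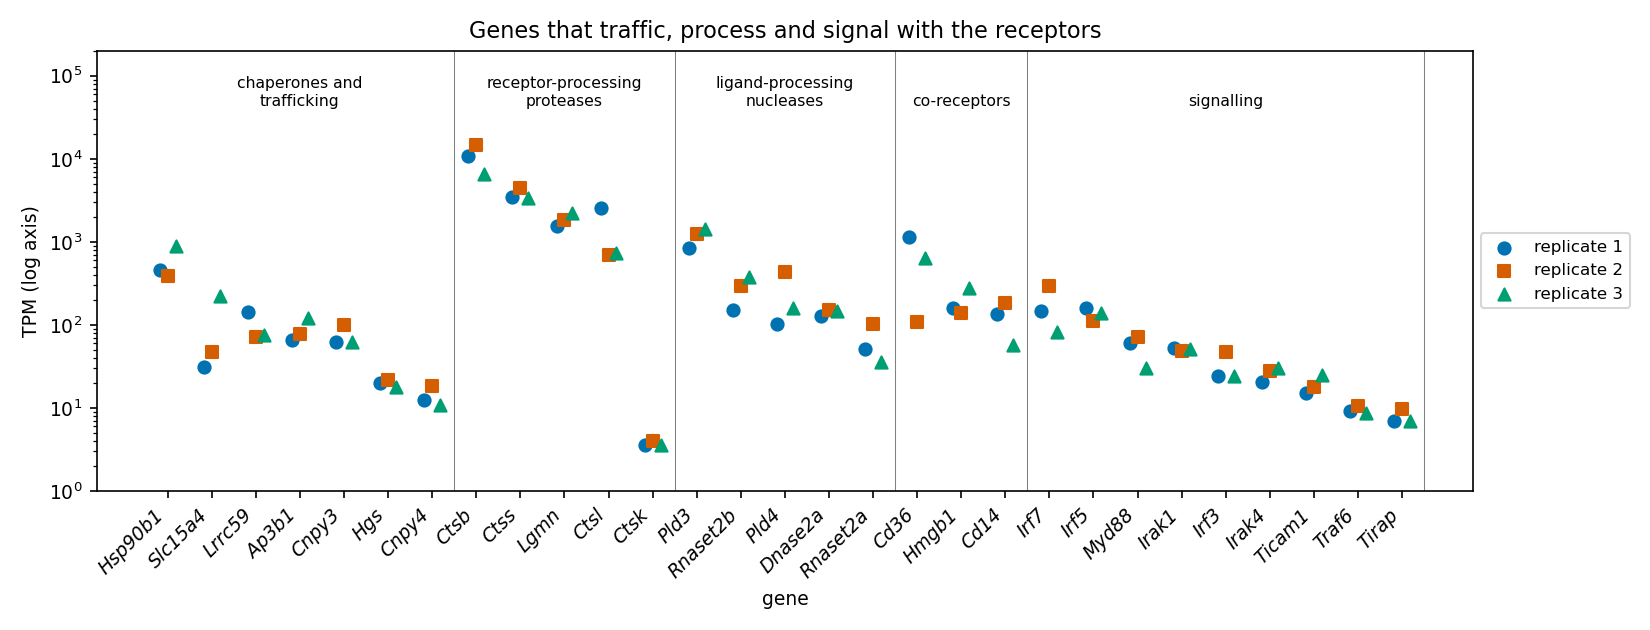
TPM (log axis) of each gene of the trafficking, protease, nuclease, co-receptor and signalling lists in replicates 1 (circles), 2 (squares) and 3 (triangles), sorted by mean within each list. Proteases reach 10697 TPM on average for Ctsb, and Cd36 is lowest in replicate 2, at 108 TPM.

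The list of interferon-stimulated genes had Ifit3 (332 ± 269 TPM), Ifit2 (311 ± 300 TPM) and Rtp4 (278 ± 87.2 TPM) at its top and Usp18 (34.1 ± 27.5 TPM, SD, n = 3 each) at its end. Its median log2 ratio was -1.20, 2.00 and -0.47 in replicates 1, 2 and 3. The order of libraries in which replicate 2 was highest and replicate 1 lowest, which Tlr1, Tlr2, Tlr3, Tlr7, Tlr9 and Unc93b1 had, was found in 17.0% of all tested genes.

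Other cells of bone marrow that carry these receptors left few transcripts. Of 7 markers of plasmacytoid dendritic cells, which express Tlr7 and Tlr9 strongly, 0 reached 1 TPM in every library, and their sums were 1.98, 3.29 and 5.94 TPM in replicates 1, 2 and 3; Siglech had 0.42, 0.91 and 1.96 TPM. Of 6 B cell markers 1 was detected in every library, Cd79b at 2.31 TPM on average, with sums of 1.59, 2.49 and 3.49 TPM. Of 6 conventional dendritic cell markers 1 was detected, Batf3, with sums of 5.59, 7.78 and 5.30 TPM. Of all genes, 19.0% were detected in every library. Tlr9 was highest in replicate 2. The sums for plasmacytoid dendritic cells and B cells were highest in replicate 3. That for conventional dendritic cells was highest in replicate 2, where Batf3 alone made up 6.14 of its 7.78 TPM. The other markers of that list, Flt3, Zbtb46, Xcr1, Clec9a and Ccr7, were highest in replicate 3 on scaled counts. Ccr7 had 0.88, 0.83 and 1.7 TPM in replicates 1, 2 and 3, and the rest of these were under 1 TPM in every library. The part of these cells in the receptor values was not tested.

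Granulocyte and monocyte markers varied more. The sum of 8 neutrophil markers was 36.2 TPM in replicate 2, against 172 and 337 TPM in replicates 1 and 3. Detected in every library were 4 of the 8, against 19.0% of all genes, with S100a9 and S100a8 the highest and Ly6g at 0 in all. The sum of 7 monocyte markers was 259 TPM in replicate 2, against 85.7 and 117 TPM in replicates 1 and 3. Of the 7 markers 6 were detected, against the same 19.0% of all genes. Of these, 3 were highest in replicate 2, Ms4a4c, F13a1 and Plac8, as were Tlr2, Tlr7 and Tlr9. Their part in the receptor values was not tested.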

How the data were processed

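For each library a gene table and 2 transcript tables were used. Per the file headers the deposited expected counts and TPM are in the format of RSEM, which splits ambiguous reads by likelihood; a further transcript table in the format of kallisto holds the authors' estimated counts and TPM. The percent of each gene taken by a transcript is also deposited; here shares were computed from TPM in both tables. Build mm10 and annotation M21 come from the deposited lists; aligner, versions and strand setting: not given in the sources used here. The 26345 entries that name no gene (0.131%, 0.122% and 0.0843% of counts) were left out. Expected counts were rounded, scaled by TMM factors and filtered by filterByExpr in edgeR 4.0.16 (limma 3.58.1, R 4.3.3), which fitted an intercept only (glmQLFit); an upper-tail F test set each quasi-dispersion against the prior, with Benjamini-Hochberg adjustment over 11886 genes. The test was tried on simulated counts. DESeq2 1.42.0 served as an alternative. Log2 ratios used a prior count of 0.5. A count of 0 allows 3 counts, or 0.107, 0.101 and 0.0561 CPM in replicates 1, 2 and 3; this covers counting error only. All 10 genes are named, and of each other list the 3 of highest mean TPM and the lowest, with members needed to account for a group; of transcripts, the leading one and those at 10% or more. The members, lists, motifs and tests were chosen with earlier results of these data known, so no pattern here is independent evidence. Genes or measures added after the values were seen are marked. The level of 1 marker gene of a list is not reported here.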

Additional observations from a re-analysis of the deposited data

How the results depend on the processing

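All 10 genes remained detected by posterior mean TPM and in the kallisto-format table, and at 5 TPM 9 did, without Tlr5. At 0.5 TPM and without each library in turn the count was also 10, but these settings could not lower it. The number of genes over 2-fold higher in replicate 2 was 2, became 4 in CPM without TMM scaling, and ranged from 1 to 4 when replicate 1 or 3 was left out; it was 2 with DESeq2 size factors and kallisto-format counts and 3 in log2 TPM. With all libraries kept, the number highest in replicate 2 was 6 or 7 and that lowest in replicate 1 ranged from 6 to 8. With a library left out, these numbers could only stay or rise. They were then 7 or 8 for replicate 2 and 8 for replicate 1. The number with a transcript shift over 25 points in replicate 3 was 5, and 3 at 35 points. edgeR called 0 of the 10 genes under every alternative, with 1 or 2 at an unadjusted p under 0.05; without a filter on low counts it called 146 genes of 21603 and without replicate 2, 7 of 12517, none of them among the 10. Of 60 alternative mean levels 59 moved by less than 1 SD. The exception was Tlr8 over transcripts of at least 1000 bases, at 95.4 TPM. Of 50 alternative log2 ratios for replicate 2, 48 moved by less than 1 SD, with the exceptions of Tlr1 (0.34) and Tlr6 (-0.62) in log2 TPM. Means and ratios with a library left out could not move by more than 1 SD, so those settings say nothing about stability. A wide spread also hides large moves. Over transcripts of at least 1000 bases the mean of Tlr6 fell from 42.6 to 11.3 TPM, within its SD of 31.5 TPM. The sign of small ratios turned without replicate 1, for Tlr5 (-0.21 with all libraries, 0.28 without it), Tlr6 (0.09 and -0.26) and Tlr8 (0.14 and -0.22); Tlr8 was at -0.01 in kallisto-format counts. The cause was not tested. No paired analysis was possible because there is only 1 group. Precision is limited by 3 libraries and, for Tlr5, by 120 to 181 counts.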

Other observations

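The remaining Toll-like receptor genes give a scale for these levels. Tlr4, the receptor of lipid A itself, had 60.6, 63.6 and 45.5 TPM in replicates 1, 2 and 3, close to Tlr1 and below Tlr13, which was 4.81, 2.06 and 4.21 times as high in TPM. Tlr11 and Tlr12, which in mice recognise profilin of protozoan parasites, averaged 0.317 ± 0.238 TPM and 0.190 ± 0.252 TPM (SD, n = 3 each). Their expected counts were 3, 31 and 42 for Tlr11 and 3, 19 and 4 for Tlr12, at or just above the limit that a count of 0 allows in replicate 1. Both of these low receptors were under 1 TPM in every library.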
